A study of Homo sapiens with 6 samples.

Results

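The minichromosome maintenance (MCM) family was examined by RNA-seq in OE-19 cells with and without knockdown of IGF2BP3. The family was taken by gene symbol as *MCM2* to *MCM10* and *MCMBP*, which are 10 of the 60480 gene identifiers in the count table, and every member was found once and passed the filter on low counts. After IGF2BP3 knockdown, 9 of the 10 mRNAs were called lower (edgeR, adjusted p under 0.05) and *MCM9* was not. Of all genes tested, 10.6% were called lower. The call of *MCMBP* (adjusted p = 0.0303) held under 10 of 14 alternative settings and was lost when certain single libraries were left out. Among the 6 subunits of the replicative helicase the falls ran from 22.4% for *MCM4* to 39.1% for *MCM6*. The 95% confidence intervals of these 2 subunits, picked as the extremes after their values were seen, did not overlap.

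MCM2 to MCM7 form the ring-shaped helicase that is loaded onto replication origins in G1 phase and unwinds DNA in S phase. The origin recognition complex, CDC6 and CDT1 load the ring, and kinases together with CDC45 and the GINS complex switch it on. MCM10 takes part in this activation, MCM8 and MCM9 form a separate helicase known for homologous recombination, and MCMBP binds MCM subunits. Genes of the ring are classical targets of E2F transcription factors and are widely used as markers of proliferating cells, also in tumors of the gut.

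OE-19 is an established cell line from an adenocarcinoma of the esophagogastric junction (AEG). The control group is 3 libraries of OE-19 cells with a control shRNA (shControl) and the other group is 3 libraries of OE-19 cells with shRNA against IGF2BP3 (IGF2BP3 KD), an RNA-binding protein that reads *N*6-methyladenosine. All 6 libraries come from this single line, grown in RPMI1640 with 10% fetal bovine serum, and neither the time after knockdown nor the number of hairpins is given in the sources used here. The design asks which mRNAs depend on IGF2BP3, and nothing says that the 3 libraries of a group came from separate cultures, so p-values measure the spread between these libraries, which may be technical.

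Total counts per library lay between 53453621 and 70026203, which puts at least 779 counts behind each member in each library. *IGF2BP3* itself had 106 to 112 CPM (counts scaled to the library total) in the control libraries and 12.6 to 14.4 CPM in the IGF2BP3 KD libraries, so the labels match the targeted gene. The 5 epithelial markers *EPCAM*, *CDH1*, *KRT8*, *KRT18* and *KRT19* summed to 5680 to 5750 CPM in control and 5600 to 5710 CPM in IGF2BP3 KD libraries. Of 14 markers of fibroblasts, leukocytes and endothelial cells, 11 stayed under 1 CPM in every library, and *COL1A2*, *LUM* and *CD3E* had no count at all. The summed fibroblast markers went from 20.8 to 24.0 CPM in control to 29.6 to 34.1 CPM in IGF2BP3 KD libraries, nearly all from *COL1A1*. The summed leukocyte markers went from 33.4 to 38.8 CPM to 49.4 to 54.8 CPM, nearly all from *CD68*, and the 4 endothelial markers together stayed at or under 0.563 CPM. Whether these shifts have a part in the results on the MCM genes was not tested.

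Counts were scaled with edgeR's TMM factors, fold changes are given as log2 of IGF2BP3 KD over control with their standard error (SE), and a gene is called lower or higher when its p, adjusted over all 19778 genes tested, is under 0.05. By this rule 9 of the 10 MCM genes were lower and 0 were higher, while 10.6% of all genes tested were lower and 9.87% were higher. The family was chosen with earlier results of these data known. The median log2 fold change was -0.45 over the 10 members and 0.01 over all genes tested. In the same 9 genes all 3 IGF2BP3 KD libraries lay below all 3 control libraries, an arrangement seen in 17.8% of the genes tested. In bulk libraries, fewer cells that make an mRNA and less of that mRNA per cell cannot be told apart.

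**Figure D1:**
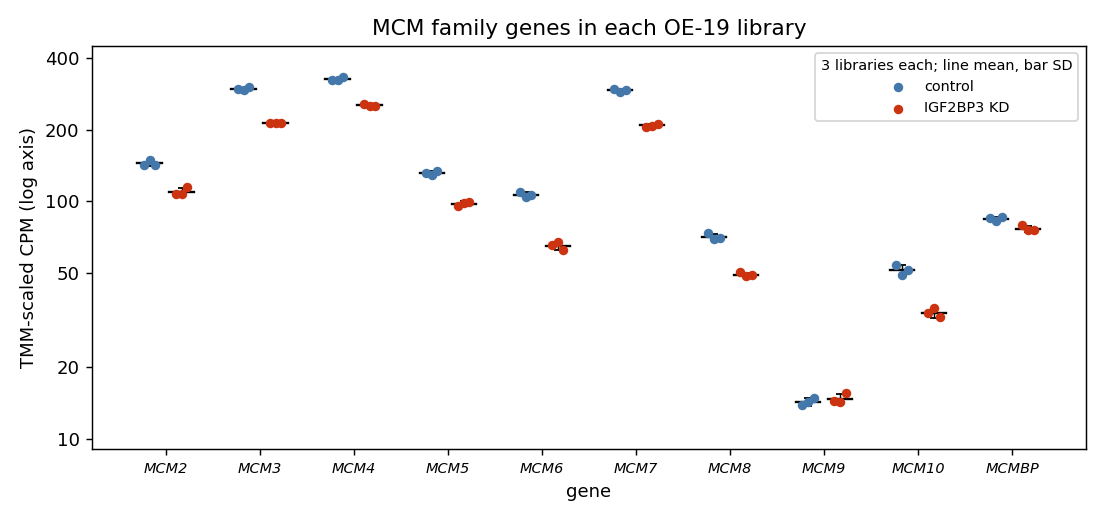
Expression of the 10 MCM family genes in each of the 6 OE-19 libraries, as TMM-scaled CPM on a log axis, with 3 control and 3 IGF2BP3 KD libraries per gene (line, mean; bar, SD). The groups are apart for every gene except *MCM9*, whose 3 control values (13.8 to 14.9 CPM) and 3 IGF2BP3 KD values (14.2 to 15.5 CPM) overlap.

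*MCM6* had the largest fall of the family. This ring subunit (ENSG00000076003, hg38 chromosome 2, 135839626 to 135876443, minus strand) had 109, 104 and 106 CPM in control replicates 1, 2 and 3 and 65.3, 67.0 and 62.2 CPM in IGF2BP3 KD replicates 1, 2 and 3. The lowest control library was well above the highest IGF2BP3 KD library. This is a fall by 39.1%, or -0.72 on the log2 scale (SE 0.04, adjusted p = 1.12e-06). In GENCODE v44 *MCM6* shares no exon with another gene, and no other coding gene lies within 1000 bases of it.

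*MCM7* and *MCM3* had the smallest p-values of the family. *MCM7* (ENSG00000166508, chromosome 7, 100092233 to 100101940, minus strand) had 297, 289 and 293 CPM in control and 206, 208 and 211 CPM in IGF2BP3 KD replicates 1, 2 and 3. Replicates of *MCM7* differed by a few percent only, and the log2 fold change was -0.49 (SE 0.03, adjusted p = 5.49e-07). *MCM3* (ENSG00000112118, chromosome 6, 52264014 to 52284881, minus strand) had 296, 292 and 301 CPM in control and 212, 214 and 213 CPM in IGF2BP3 KD replicates. Its IGF2BP3 KD libraries were nearly identical to each other, and its log2 fold change was -0.47 (SE 0.03, adjusted p = 5.76e-07). *MCM7* shares 392 exonic bases with *AP4M1* on the opposite strand, while *MCM3* shares none with another gene.

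The RefSeq promoter table, which covers 250 bases before to 50 bases after each gene's start on GRCh38, held windows for 8 of the 10 members. The other members are *MCM4* and *MCM5*. The windows were searched on both strands for the E2F words TTTCCCGC, TTTCGCGC, TTTGCCGC and TTTGGCGC, for the NF-Y word CCAAT and for the cell cycle words TTTGAA and TTTCGAA. These stretches are shown because genes of the family moved together and their windows differ in these words. They run 5′ to 3′ along the gene's strand, and capitals mark E2F and CCAAT words on either strand, some of which overlap.
MCM6, positions -160 to -41, chr2:135876484-135876603, minus strand: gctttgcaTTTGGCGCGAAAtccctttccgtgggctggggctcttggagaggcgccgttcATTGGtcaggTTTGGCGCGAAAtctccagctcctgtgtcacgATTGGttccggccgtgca
MCM7, positions -110 to -1, chr7:100101398-100101507, minus strand: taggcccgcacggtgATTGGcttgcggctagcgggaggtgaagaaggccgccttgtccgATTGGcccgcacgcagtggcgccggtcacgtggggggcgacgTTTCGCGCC
MCM9, positions -110 to -1, chr6:118935160-118935269, minus strand: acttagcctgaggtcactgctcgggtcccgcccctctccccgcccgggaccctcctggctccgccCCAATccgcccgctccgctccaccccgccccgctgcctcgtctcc
MCM10, positions -130 to -81, chr10:13161428-13161477, plus strand: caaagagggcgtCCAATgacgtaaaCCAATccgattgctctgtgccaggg

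The E2F words were also found in short stretches of other members, given here with their position from the RefSeq start of each window. For *MCMBP* that start is an alternative one inside the gene. The starts used for *MCM3* and *MCM7* also lie inside the GENCODE v44 bounds of these genes, by more than a few bases.
MCM3, positions -185 to -156, chr6:52284898-52284927, minus strand: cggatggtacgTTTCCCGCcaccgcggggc
MCM3, positions -15 to 15, chr6:52284728-52284757, minus strand: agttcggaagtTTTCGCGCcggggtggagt
MCM2, positions -9 to 21, chr3:127598402-127598431, plus strand: cgtgaaccactTTTCGCGCGAAAcctggtt
MCM8, positions 16 to 45, chr20:5950667-5950696, plus strand: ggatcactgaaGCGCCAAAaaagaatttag
MCMBP, positions -20 to 10, chr10:119872834-119872863, minus strand: ggcggcggctaTTTCCCGCcattgtgcgaa

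The 8 members have 11 windows in the table, with 3 for *MCM7* and 2 for *MCMBP*. Words are counted here by member, while the shares for all promoters are by window, so the measures are unlike. For *MCMBP* only the window at the alternative start held an E2F word, and for *MCM7* only the window shown above did. An E2F word stood in a window of 6 of the 8 members (*MCM2*, *MCM3*, *MCM6*, *MCM7*, *MCM8* and *MCMBP*), against 3.31% of the 35116 promoter windows of the same length. *MCM6* held 4 E2F words (from positions -152, -148, -90 and -86), the first and last pair of which overlap. *MCM2* held 1 such overlapping pair, from positions 3 and 7. CCAAT stood in windows of 6 of the 8 members (*MCM3*, *MCM6*, *MCM7*, *MCM8*, *MCM9* and *MCM10*), against 34.6% of all windows. The words TTTGAA and TTTCGAA stood in no window of a member, against 15.7% of all windows. *MCM9* (log2 fold change 0.04) and *MCM10* (-0.60) held no E2F word in their window. Whether any of these words has a part in the changes was not tested. The presence of these letters is a description of the windows and does not show that a factor binds there.

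The other ring subunits fell less. *MCM5* (ENSG00000100297, chromosome 22, 35400134 to 35425431, plus strand) went from 131 ± 2.56 to 97.5 ± 2.25 CPM (SD, n = 3), a log2 fold change of -0.43 (SE 0.04). *MCM2* (ENSG00000073111, chromosome 3, 127598410 to 127622436, plus strand) had 142, 148 and 142 CPM in control and 107, 107 and 114 CPM in IGF2BP3 KD replicates. Its groups were apart, with a log2 fold change of -0.40 (SE 0.04, adjusted p = 3.58e-05). *MCM2* shares 1113 exonic bases with the lncRNA *RP11-427I6.5* (ENSG00000285600) on the opposite strand, which had a mean of 11.3 CPM in control and 7.82 CPM in IGF2BP3 KD libraries, so this part of its counts is uncertain. *MCM4* (ENSG00000104738, chromosome 8, 47960185 to 47978160, plus strand) had the highest counts and the smallest fall of the ring, with 324, 323 and 332 CPM in control and 256, 252 and 252 CPM in IGF2BP3 KD replicates. The log2 fold change of *MCM4* was -0.37 (SE 0.03, adjusted p = 3.29e-06). Its 95% confidence interval, -0.42 to -0.31, lies apart from that of *MCM6*, -0.81 to -0.62. The interval of *MCM4* also lies apart from that of *MCM7* and overlaps those of *MCM2*, *MCM3* and *MCM5*.

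**Figure D2:**
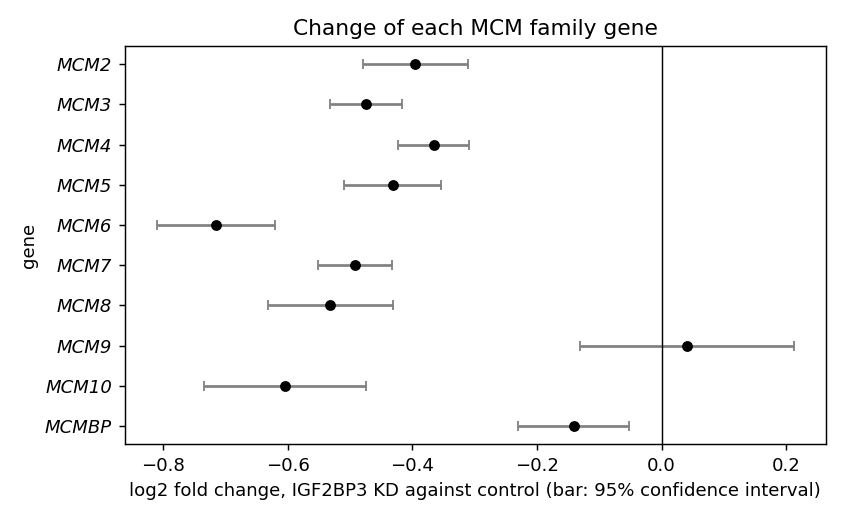
Log2 fold change of each MCM family gene, IGF2BP3 KD against control, with its 95% confidence interval from edgeR. *MCM6* (-0.72) and *MCM10* (-0.60) lie farthest below 0, *MCMBP* (-0.14) lies close to it, and the interval of *MCM9* (-0.13 to 0.21) spans it.

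Summed over the 6 ring subunits, control libraries held 1285 to 1308 CPM and IGF2BP3 KD libraries 941.5 to 952.6 CPM. To compare subunits with each other, CPM were divided by the length of all annotated exons of the gene in kilobases. On this scale *MCM3* had the highest level in control cells (81.3 ± 1.20 CPM per kilobase, SD, n = 3), followed by *MCM7* (59.0 ± 0.797). *MCM4* (33.1 ± 0.473), *MCM2* (30.5 ± 0.801) and *MCM6* (25.7 ± 0.642) came next, and *MCM5* had the lowest level (18.1 ± 0.352). Neighbors in this order were farther apart than their SDs. Outside the ring, *MCMBP* (14.1), *MCM10* (9.44), *MCM8* (9.21) and *MCM9* (1.15 CPM per kilobase) followed as control means, of which *MCM10* and *MCM8* did not differ beyond their SDs. The order depends on the length used, and with the longest transcript of each gene in place of all exons *MCM7* (94.9 ± 1.28) stood above *MCM3* (92.3 ± 1.36), and *MCM5* (28.6 ± 0.557) and *MCM6* (28.4 ± 0.708) did not differ beyond their spread.

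As a share of the ring sum per kilobase of exons, *MCM6* went from 10.4% ± 0.217 in control to 8.79% ± 0.373 in IGF2BP3 KD cells (SD, n = 3). *MCM4* went the other way, from 13.4% ± 0.123 to 14.4% ± 0.213. Both shares moved by more than the spread between replicates, and the groups did not overlap. The share of *MCM3* was 32.8% ± 0.257 in control and 32.8% ± 0.149 in IGF2BP3 KD cells, and that of *MCM7* was 23.8% ± 0.208 and 23.5% ± 0.146. The shares of *MCM7* did not overlap between the groups either, by a narrow margin (lowest control 23.704%, highest IGF2BP3 KD 23.677%). Such shares move together, since one subunit can only gain what others lose.

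Ratios of counts within a library need no gene length. The ratio of *MCM4* to *MCM6* CPM was 2.97 to 3.13 in control and 3.76 to 4.06 in IGF2BP3 KD libraries. Of the 15 pairs of ring subunits, 11 had ratios that did not overlap between the groups, including all 5 pairs with *MCM6*. Such ratios are often apart in these libraries. Of all pairs of genes that averaged 10 CPM or more, 52.6% had ratios that did not overlap in one direction or the other. Whether the count of 11 of 15 differs from this share was not tested. The ratio of *MCM3* to *MCM7* stayed between 0.997 and 1.03 in both groups. With 3 libraries per group the smallest p of a two-sided exact permutation test is 0.1, which each of the 11 pairs reached (adjusted p = 0.15 over all 21 ratios tested), so these differences cannot pass the threshold in this design.

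**Figure D3:**
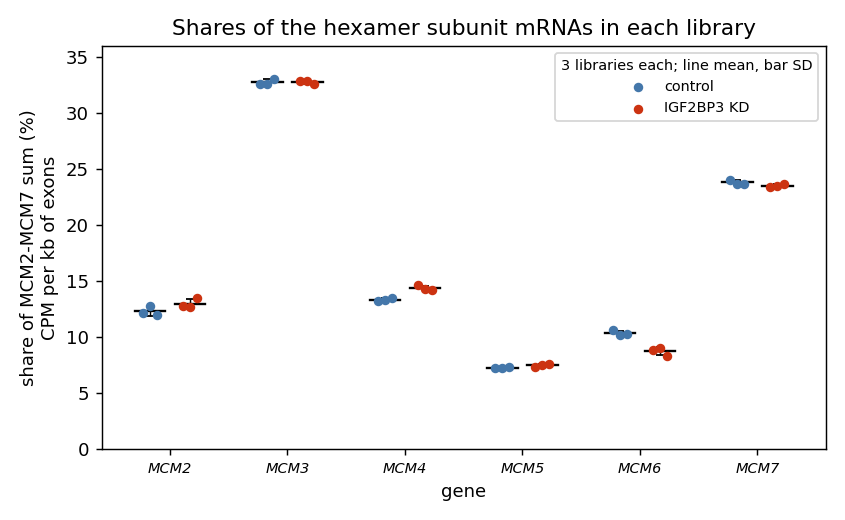
Share of each ring subunit in the summed CPM per kilobase of exons of *MCM2* to *MCM7*, in percent, for each library (line, mean; bar, SD over 3 libraries). *MCM6* is lower in all 3 IGF2BP3 KD libraries (8.37% to 9.09%) than in all 3 control libraries (10.2% to 10.6%), and *MCM4* is higher.

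*MCM8* and *MCM9*, whose proteins work as a pair, gave different values. *MCM8* (ENSG00000125885, chromosome 20, 5950652 to 5998977, plus strand) had 73.1, 69.5 and 69.8 CPM in control and 50.1, 48.2 and 48.6 CPM in IGF2BP3 KD replicates 1, 2 and 3. The groups were far apart, with a log2 fold change of -0.53 (SE 0.05, adjusted p = 1.37e-05). *MCM9* (ENSG00000111877, chromosome 6, 118813442 to 118935162, minus strand) had 13.8, 14.3 and 14.9 CPM in control and 14.4, 14.2 and 15.5 CPM in IGF2BP3 KD replicates. These values overlap, and the log2 fold change was 0.04 (SE 0.08, 95% confidence interval -0.13 to 0.21, adjusted p = 0.791). The lower bound of this interval is closer to 0 than the fold change of any other member, *MCMBP* (-0.14) included. The interval of *MCMBP* (-0.23 to -0.05) overlaps that of *MCM9*, so these 2 members are not set apart.

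The ratio of *MCM8* to *MCM9* CPM was 4.69 to 5.29 in control and 3.13 to 3.47 in IGF2BP3 KD libraries, with no overlap (exact permutation p = 0.1, the smallest possible). *HROB*, which loads this helicase, was called lower with a log2 fold change of -0.59 (SE 0.13, adjusted p = 7.82e-03). *MCM9* shares 205 exonic bases with *ASF1A*, a histone chaperone gene inside it on the opposite strand, which was higher in IGF2BP3 KD cells (log2 fold change 0.35, SE 0.08, adjusted p = 8.99e-03). *MCM8* shares 2564 exonic bases, 33.3% of its exons, with a coding gene on its strand, *RP5-967N21.13* (ENSG00000286235). That gene had 0 counts in 5 libraries and 20 in the other. How reads over the shared bases were counted is not given, so this part of the *MCM8* counts is uncertain.

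Of the members that were lower, *MCM10* had the largest fall after *MCM6*, and *MCMBP* had the smallest. *MCM10* (ENSG00000065328, chromosome 10, 13161558 to 13211110, plus strand) had 54.0, 48.9 and 51.5 CPM in control and 33.6, 35.5 and 32.4 CPM in IGF2BP3 KD replicates. The groups did not overlap, and the log2 fold change was -0.60 (SE 0.06, adjusted p = 3.61e-05), a fall by 34.2%. *MCMBP* (ENSG00000197771, chromosome 10, 119829404 to 119892556, minus strand) had 85.0, 82.8 and 85.5 CPM in control and 79.0, 75.4 and 75.2 CPM in IGF2BP3 KD replicates. This is a small shift without overlap, with a log2 fold change of -0.14 (SE 0.04, adjusted p = 0.0303). The call was lost without control replicate 1 (adjusted p = 0.0537), without control replicate 3 (0.102), without IGF2BP3 KD replicate 2 (0.103) and without IGF2BP3 KD replicate 3 (0.0943). *MCMBP* shares 194 exonic bases with a lncRNA on the opposite strand (ENSG00000289966), which has no row among the counts. *INPP5F*, a coding gene 257 bases from *MCMBP* on the opposite strand, was called lower (log2 fold change -0.35, SE 0.08, adjusted p = 8.28e-03).

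*MCM2*, *MCM4*, *MCM7*, *MCM8* and *MCMBP* each have a coding gene that starts close by and runs in the opposite direction. *PRKDC*, a DNA repair kinase gene whose start lies 7 bases from that of *MCM4*, had a log2 fold change of -0.38 (SE 0.02, adjusted p = 6.08e-07), and the ratio of *MCM4* to *PRKDC* CPM was 0.290 to 0.293 in control and 0.291 to 0.297 in IGF2BP3 KD libraries. These ranges overlap, and the log2 ratio differed by 0.01 between the groups. *TRMT6*, a tRNA methyltransferase gene whose start lies 94 bases from that of *MCM8*, was also lower (log2 fold change -0.39, SE 0.08, adjusted p = 6.94e-03). The ratio of *MCM8* to *TRMT6* CPM was 1.61 to 1.87 in control and 1.46 to 1.79 in IGF2BP3 KD libraries, which overlap.

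*TPRA1*, 143 bases from *MCM2*, was not called, with a log2 fold change of 0.00 (95% confidence interval -0.14 to 0.14, adjusted p = 0.978). The ratio of *MCM2* to *TPRA1* CPM was 4.28 to 4.39 in control and 3.07 to 3.52 in IGF2BP3 KD libraries, without overlap. *AP4M1*, whose start lies 391 bases from that of *MCM7*, had a log2 fold change of -0.13 (adjusted p = 0.400). The ratio of *MCM7* to *AP4M1* CPM went from 14.7 to 18.3 in control to 12.7 to 13.3 in IGF2BP3 KD libraries. These genes overlap and share 392 exonic bases, so this ratio is uncertain. *SEC23IP*, 151 bases from *MCMBP*, had a log2 fold change of -0.06 (adjusted p = 0.485), and the ratio of *MCMBP* to *SEC23IP* CPM was 0.961 to 1.04 in control and 0.895 to 1.02 in IGF2BP3 KD libraries. So at *MCM2* and *MCM7* the ratio to the neighbor was lower in every IGF2BP3 KD library than in every control library, and at *MCM4*, *MCM8* and *MCMBP* the ratios overlapped. The share of 52.6% given above for pairs of genes in either direction holds here too. The exact permutation p was 0.1 for *MCM2* and *MCM7*, 0.2 for *MCM4* and *MCMBP* and 0.3 for *MCM8*, and it cannot go below 0.1 here.

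**Figure D4:**
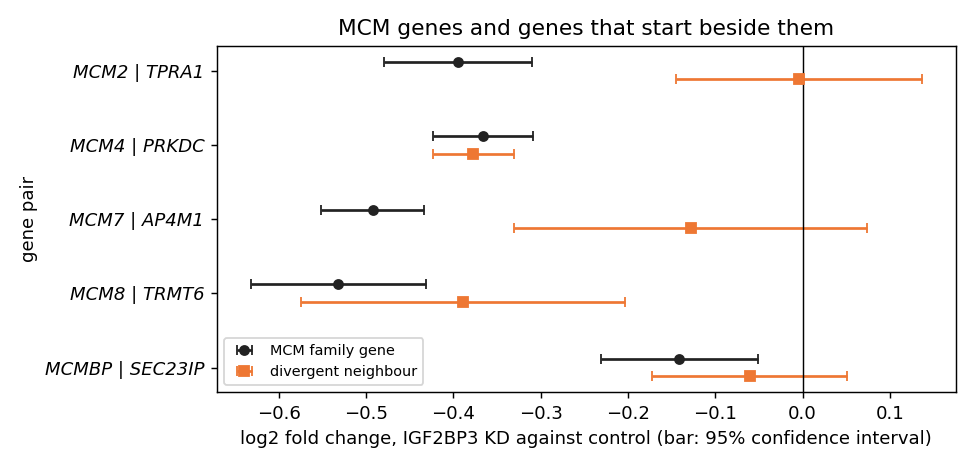
Log2 fold changes (IGF2BP3 KD against control, bars for 95% confidence intervals) of 5 MCM family genes, drawn as circles, and of the coding gene that starts beside each on the opposite strand, drawn as squares. *MCM4* (-0.37) and *PRKDC* (-0.38) lie together, while *MCM2* (-0.40) and *TPRA1* (0.00) lie apart.

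*MCM7* also carries *MIR106B*, *MIR93* and *MIR25* on its own strand. Their mature RefSeq sequences are shown because they lie within the *MCM7* transcription unit, which fell by 28.9%, and the seed (bases 2 to 8) is in capitals.
hsa-miR-106b-5p: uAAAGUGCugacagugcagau
hsa-miR-93-5p: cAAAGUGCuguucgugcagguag
hsa-miR-25-3p: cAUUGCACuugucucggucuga
The seed of miR-106b-5p and miR-93-5p is the same, and that of miR-25-3p differs. Poly(A) RNA libraries do not measure mature miRNAs, and the rows of *MIR106B* and *MIR93* had 0 to 6 counts per library. The row of *MIR25* had 28, 26 and 32 counts in control and 13, 19 and 15 in IGF2BP3 KD replicates, a log2 fold change of -0.75 (SE 0.46) that was not called (adjusted p = 0.310).

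In the main GENCODE v44 transcript of each member the 3′ UTR has 204 (*MCM7*) to 4586 (*MCM8*) bases, with a median of 1289 bases, near the median of 1257 bases over 13933 coding genes tested. The 7-base words GATTACT and ACACATC, which were taken up from earlier results of these data, occur in the 3′ UTR of 7.69% and 9.53% of these genes and of 0 of the 10 members. TGGAC, the DNA letters of the UGGAC word that the study's binding data gave for IGF2BP3, occurs in the 3′ UTR of 8 of the 10 members and of 61.4% of coding genes. *MCM5* and *MCM8* hold it 3 times, *MCM9* 2 times, and *MCM6* and *MCM7* not at all. Whether the word has a part in the changes was not tested.

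Other genes that handle the MCM ring were taken from a list of 45 genes, which was chosen with earlier results of these data known. Of these, 31 were lower, 1 was higher and 13 were not called, and the median log2 fold change was -0.33. The share of lower genes was 68.9%, against the 10.6% given above for all genes tested. *PCNA*, the sliding clamp of replication forks, had a log2 fold change of -0.39 (SE 0.03), and *MKI67*, a general marker of cycling cells, had -0.10 (SE 0.02). Both were called lower, and the value of *MKI67* is closer to 0 than that of any MCM gene that was called.

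Of 9 genes for origin recognition and MCM loading, 6 were lower. *GMNN*, which encodes the inhibitor of CDT1, had a log2 fold change of -0.62 (SE 0.06), *CDC6* had -0.50 (SE 0.05) and *CDT1* -0.36 (SE 0.05). So the loaders and their inhibitor were lower together. Of the 6 subunits of the origin recognition complex, *ORC2*, *ORC4* and *ORC6* were lower and *ORC1*, *ORC3* and *ORC5* were not called (adjusted p from 0.0728 to 0.263).

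Of 13 genes for MCM phosphorylation and helicase activation, 10 were lower. *CDC45*, a partner of MCM2 to MCM7 in the active helicase, had a log2 fold change of -0.57 (SE 0.05), *GINS1* had -0.54 (SE 0.06) and *RECQL4* -0.41 (SE 0.05). *GINS3* and *GINS4* were lower too, while *GINS2*, the other subunit of this complex, had 24.5 ± 1.42 CPM in control and 23.7 ± 1.56 CPM in IGF2BP3 KD cells (SD, n = 3, log2 fold change -0.05, adjusted p = 0.723). *GINS2* was singled out after its value was seen. *CDC7*, the kinase that phosphorylates the ring, was lower (-0.38, SE 0.09), and its activators *DBF4* (-0.10) and *DBF4B* (0.09) were not called.

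Of 12 replisome genes whose proteins travel with the helicase, 9 were lower. *POLA1*, the catalytic subunit of DNA polymerase alpha, had the largest fall of the list with -0.83 (SE 0.06), followed by *CLSPN* with -0.75 (SE 0.06) and *TIPIN* with -0.70 (SE 0.08). Of 7 genes for ubiquitylation and unloading of the ring, 3 were lower, *VCP* (-0.18, SE 0.03), *FAF1* (-0.27, SE 0.05) and *UFD1* (-0.22, SE 0.04). *NPLOC4*, the partner of UFD1 and VCP in this step, was higher (0.14, SE 0.04, adjusted p = 0.0251), which was noticed after its value was seen. Of the 4 genes for MCM acetylation and loading of MCM8 and MCM9, *KAT7* (-0.35), *MCM3AP* (-0.18) and *HROB* were lower and *BRPF3* (0.10) was not called.

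**Figure D5:**
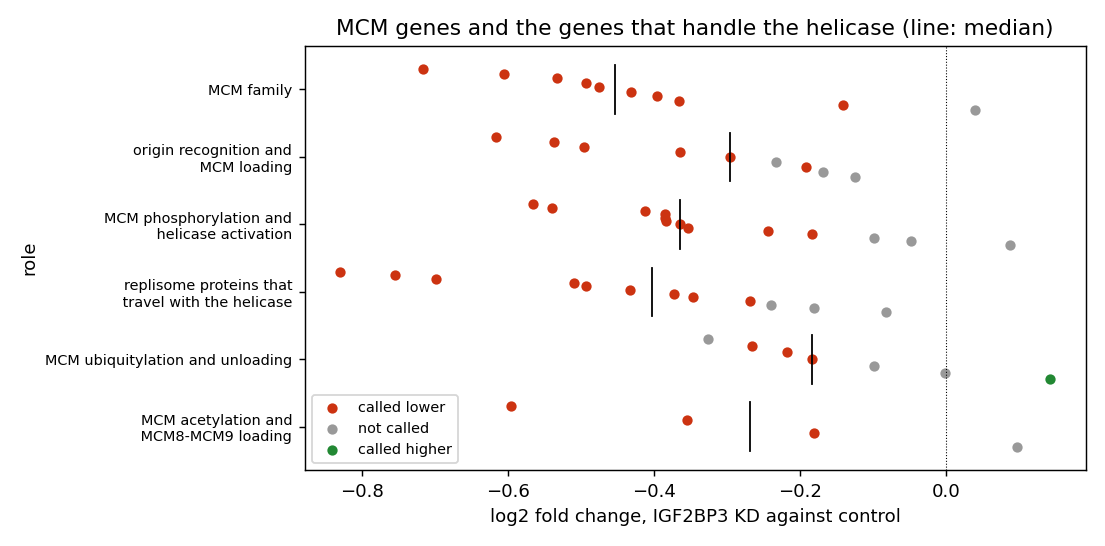
Log2 fold changes, IGF2BP3 KD against control, of the MCM family and of 45 genes that load, activate, escort, unload or modify the ring, grouped by role, with a point per gene and a line at the median of each group. The medians run from -0.45 for the MCM family and -0.40 for replisome genes to -0.18 for unloading genes.

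Of the 9847 genes that averaged 10 CPM or more, those whose log2 CPM followed the mean of *MCM2* to *MCM7* most closely over the 6 libraries were *DDAH1*, *ERBB3*, *ZMYND11*, *RHOA* and *RPL7L1*, each with a Pearson r of 0.9996 or 0.9997. With 2 groups of 3 libraries this measure mostly reflects a fall between the groups with little spread within them. The log2 fold changes of these 5 genes lay between -1.46 (*ERBB3*) and -0.40 (*ZMYND11*), and no gene of the replication list was among them.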

How the data were processed

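Poly(A) RNA of 3 control and 3 IGF2BP3 KD libraries of OE-19 cells was read in pairs, 150 bases from each end. The authors mapped reads to hg38 with hisat2 and deposited raw counts per gene from featureCounts. The submitters' processing notes also name fastp. The annotation release and the strand setting of the counting are not given in the sources used here, so counts of genes that overlap on opposite strands are uncertain. The handling of reads over bases that genes share on the same strand is not given either.

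Columns were matched to libraries by the names in the sample descriptions, where the control (shControl) libraries and their columns are called Puro. Of 60480 identifiers, 44 had 132 repeated entries, which were left out. Counts of 19778 genes that passed filterByExpr (minimum count 10, minimum total 15) went into the quasi-likelihood test of edgeR 4.0.16 under R 4.3.3 (scaling by TMM, glmQLFit, glmQLFTest, no block, Benjamini-Hochberg over all genes tested, threshold 0.05). CPM in the text are TMM-scaled, and standard errors come from the quasi-likelihood F. Pairs of libraries were compared by chi-square per degree of freedom over genes, which was at least 9.86 even within a group, so no library repeats another.

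GENCODE v44 (hg38) gave exon lengths, positions and overlaps, and RefSeq (GRCh38) gave promoters and miRNAs. Some, but not all, of the genes that overlap a member or lie within 1000 bases of it were named. Named by rule were all members, up to 3 called genes with the smallest p per role and the 5 most alike genes. Outside this rule, the subunits of the origin recognition and GINS complexes, *CDC7* with *DBF4* and *DBF4B*, *BRPF3*, *NPLOC4*, *PCNA* and *MKI67* were named after their values were seen. The members and lists were chosen with earlier results of these data known. Alternatives were DESeq2 1.42.0 (the package the study used), RLE scaling, other count filters, the replicate number as a block, removal of GC trends (lowess span 0.3), repeated entries summed, another gene length, and each library left out. Figures used matplotlib 3.10.9.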

Additional observations from a re-analysis of the deposited data

How the results depend on the processing

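The directions and calls of *IGF2BP3* and of *MCM2* to *MCM8* and *MCM10* held under all 14 alternatives run for each. The number of MCM genes called lower was 8 or 9, and that of the 45 genes that handle the ring was 27 to 33. The log2 fold change of *MCM6* stayed between -0.74 and -0.69 and that of *MCM4* between -0.38 and -0.36. For *MCMBP*, leaving out 1 library at a time gave log2 fold changes between -0.169 and -0.131, and 4 of these 6 fits lost the call. For *MCM9*, the same fits gave -0.002 (without IGF2BP3 KD replicate 3) to 0.066, and no alternative called it. The cause was not tested.

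Libraries with the same replicate number did not deviate together (correlations of -0.017, -0.051 and -0.042 for numbers 1, 2 and 3), so the numbers do not pair the samples. With the replicate number as a block, 9 MCM genes were lower (*MCM6* at -0.716, *MCMBP* at -0.141) and 2026 genes were lower in all, and no library correlated best with its own number. The block changed no call of a member, also with GC trends removed. Across all genes tested the number called lower ran from 1641 to 2451. The change in share of the ring sum was between -0.186 and 0.122 percentage points for *MCM3* over its alternatives, so its sign is not settled. Among members, *MCM9* has the fewest counts and with it the widest confidence interval.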
